A study of Bos indicus with 12 samples.

Results

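The 9 genes described here were chosen by name and comprise the monocyte genes CD14, CSF1R and CTSS, the Toll-like receptor genes TLR2, TLR3, TLR4, TLR7 and TLR9, and their adaptor MYD88. They were found in a table of 26229 gene identifiers from blood RNA of 12 Bos indicus (zebu) cows, and all 9 passed the filter on low counts, as did 15420 genes in all. The cows were females of the breeds Gir and Shweta Kapila, in the second or the third lactation, and lactation records had placed 3 cows of each breed in a high-yielding and 3 in a low-yielding class. The 4 groups were therefore high-yielding Gir, low-yielding Gir, high-yielding Shweta Kapila and low-yielding Shweta Kapila cows, with no treatment named and no age or milk record analysed here. Breed and yield class were not assigned by the study, so anything else that differed between the cows moves with them. The question, from the title of the study, was which blood transcripts go with milk production in indigenous cattle.

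Toll-like receptors are sensors of microbial molecules on innate immune cells. TLR2 and TLR4 sit at the cell surface, where CD14 hands lipopolysaccharide to TLR4, while TLR3, TLR7 and TLR9 sense nucleic acids inside endosomes. All of the 5 receptors except TLR3 signal through MYD88, and TLR3 signals through TICAM1. CSF1R, the receptor of the growth factors CSF1 and IL34, is needed for the monocyte and macrophage lineage, and CTSS encodes cathepsin S, a lysosomal protease of antigen-presenting cells. CD14 and CSF1R are classical monocyte genes, but TLR2, TLR4 and MYD88 are also used by neutrophils, and TLR7 and TLR9 by B cells and plasmacytoid dendritic cells.

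The labels call the samples peripheral blood mononuclear cells and also name a kit that extracts RNA from whole blood. Both kinds of marker were present. The 7 monocyte markers in the table, of 15 looked for, summed to between 1194 and 2118.6 CPM (read counts scaled to a common library size after TMM normalisation), and 10 of 17 neutrophil markers summed to between 1737 and 5961 CPM. None of these markers was at 0 in all cows. In bulk blood RNA, fewer cells of a type and less RNA per cell cannot be told apart, and this holds for every level below. Total counts ran from 14.2 to 27.2 M per library (M, mega-counts), and 3 Shweta Kapila libraries, high-yielding cow 3 and low-yielding cows 1 and 2, exceeded 22 M. In these 3 libraries a set of 37 unnamed identifiers with short numbers took 9.00% to 13.1% of counts, against 4.54% to 8.70% in the other 9. Levels are compared between cows for 1 gene at a time, never between genes, because transcript lengths were not used here.

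CD14, the co-receptor of TLR4, had its highest levels in high-yielding Gir cows. It stood at 42.6, 42.7 and 62.7 CPM in the high-yielding Gir cows and at 30.5, 21.0 and 27.4 CPM in the low-yielding Gir cows. The high-yielding Shweta Kapila cows had 35.7, 12.7 and 35.1 CPM and the low-yielding ones 38.4, 31.3 and 20.2 CPM. All 3 high-yielding Gir cows thus lay above the other 9 cows, while the other 3 groups overlapped each other.

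CSF1R had a like order. Its levels were 158, 196 and 296 CPM in high-yielding Gir cows and 141, 83.7 and 155 CPM in low-yielding Gir cows. In Shweta Kapila they were 158, 56.1 and 137 CPM at high yield and 81.8, 124 and 97.3 CPM at low yield. The high-yielding Gir cows were above every low-yielding Gir cow, but by a narrow margin, and high-yielding Shweta Kapila cow 1 reached the lowest of them.

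Among the surface receptors, TLR2 recognises bacterial lipoproteins together with TLR1 or TLR6. TLR2 was at 160, 119 and 172 CPM in high-yielding and at 113, 114 and 114 CPM in low-yielding Gir cows. It was at 60.6, 54.5 and 130 CPM in high-yielding and at 174, 140 and 91.4 CPM in low-yielding Shweta Kapila cows. The yield classes therefore did not overlap in Gir, whereas high-yielding cow 3 and low-yielding cow 3 crossed in Shweta Kapila.

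TLR4, the lipopolysaccharide receptor, was at 108, 120 and 167 CPM in high-yielding and 82.2, 63.4 and 97.3 CPM in low-yielding Gir cows. Its levels in Shweta Kapila were 82.2, 45.0 and 128 CPM at high yield and 142, 107 and 51.2 CPM at low yield. As for TLR2, the classes were apart in Gir and mixed in Shweta Kapila.

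The endosomal receptors differed from one another. TLR3, the sensor of double-stranded RNA, was at 27.4, 21.9 and 22.7 CPM in high-yielding and 23.2, 25.4 and 24.6 CPM in low-yielding Gir cows. In Shweta Kapila TLR3 was at 20.3, 41.9 and 44.0 CPM at high yield and 75.9, 41.7 and 16.1 CPM at low yield. The highest Gir cow had 1.25 times the TLR3 level of the lowest, and the highest Shweta Kapila cow had 4.72 times that of the lowest.

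TLR7, a sensor of single-stranded RNA, was at 83.0, 96.0 and 133 CPM in high-yielding and 71.3, 57.2 and 98.8 CPM in low-yielding Gir cows. It was at 43.1, 45.0 and 88.7 CPM in high-yielding and 138, 107 and 68.8 CPM in low-yielding Shweta Kapila cows. TLR7 overlapped between the classes in both breeds.

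TLR9, which detects unmethylated CpG DNA, was measured at the fewest counts. Its levels were 2.96, 9.84 and 7.80 CPM in high-yielding and 8.69, 4.25 and 8.26 CPM in low-yielding Gir cows. They were 8.10, 4.69 and 4.03 CPM in high-yielding and 4.27, 4.23 and 16.0 CPM in low-yielding Shweta Kapila cows. Low-yielding Shweta Kapila cow 3 was the highest of the 12. In that cow the 11 B cell markers in the table, of 13 looked for, also had their highest sum, 3431 CPM against 903 to 2398 CPM in the others. Plasmacytoid dendritic cell markers had their highest sum there as well, 907 CPM against 295 to 769 CPM. The part of these cell types in the TLR9 value was not tested.

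MYD88, the shared adaptor, was at 474, 702 and 582 CPM in high-yielding and 420, 364 and 478 CPM in low-yielding Gir cows. It was at 650, 266 and 263 CPM in high-yielding and 349, 266 and 428 CPM in low-yielding Shweta Kapila cows. High-yielding Shweta Kapila cow 1 stood above the other 5 cows of that breed, and in this cow the neutrophil markers summed to 5961 CPM, against 1737 to 3257 CPM in the other 5.

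CTSS was at 523, 515 and 512 CPM in high-yielding and 333, 342 and 496 CPM in low-yielding Gir cows. It was at 340, 383 and 713 CPM in high-yielding and 1014, 649 and 315 CPM in low-yielding Shweta Kapila cows. The 3 highest values of CTSS belonged to the 3 libraries over 22 M.

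By group mean, high-yielding Gir cows were the highest for 5 genes (CD14, CSF1R, TLR2, TLR4 and MYD88) and low-yielding Shweta Kapila cows for 4 (CTSS, TLR3, TLR7 and TLR9). The means of CD14 were 49.3 ± 11.6 CPM (SD, n = 3) in high-yielding Gir and 30.0, 27.9 and 26.3 CPM in low-yielding Shweta Kapila, high-yielding Shweta Kapila and low-yielding Gir cows. Only the step from high-yielding Gir to the next group was free of overlap, and only for CD14 and CSF1R. For the other 7 genes, all neighbours in the order of group means overlapped.

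**Figure D1:**
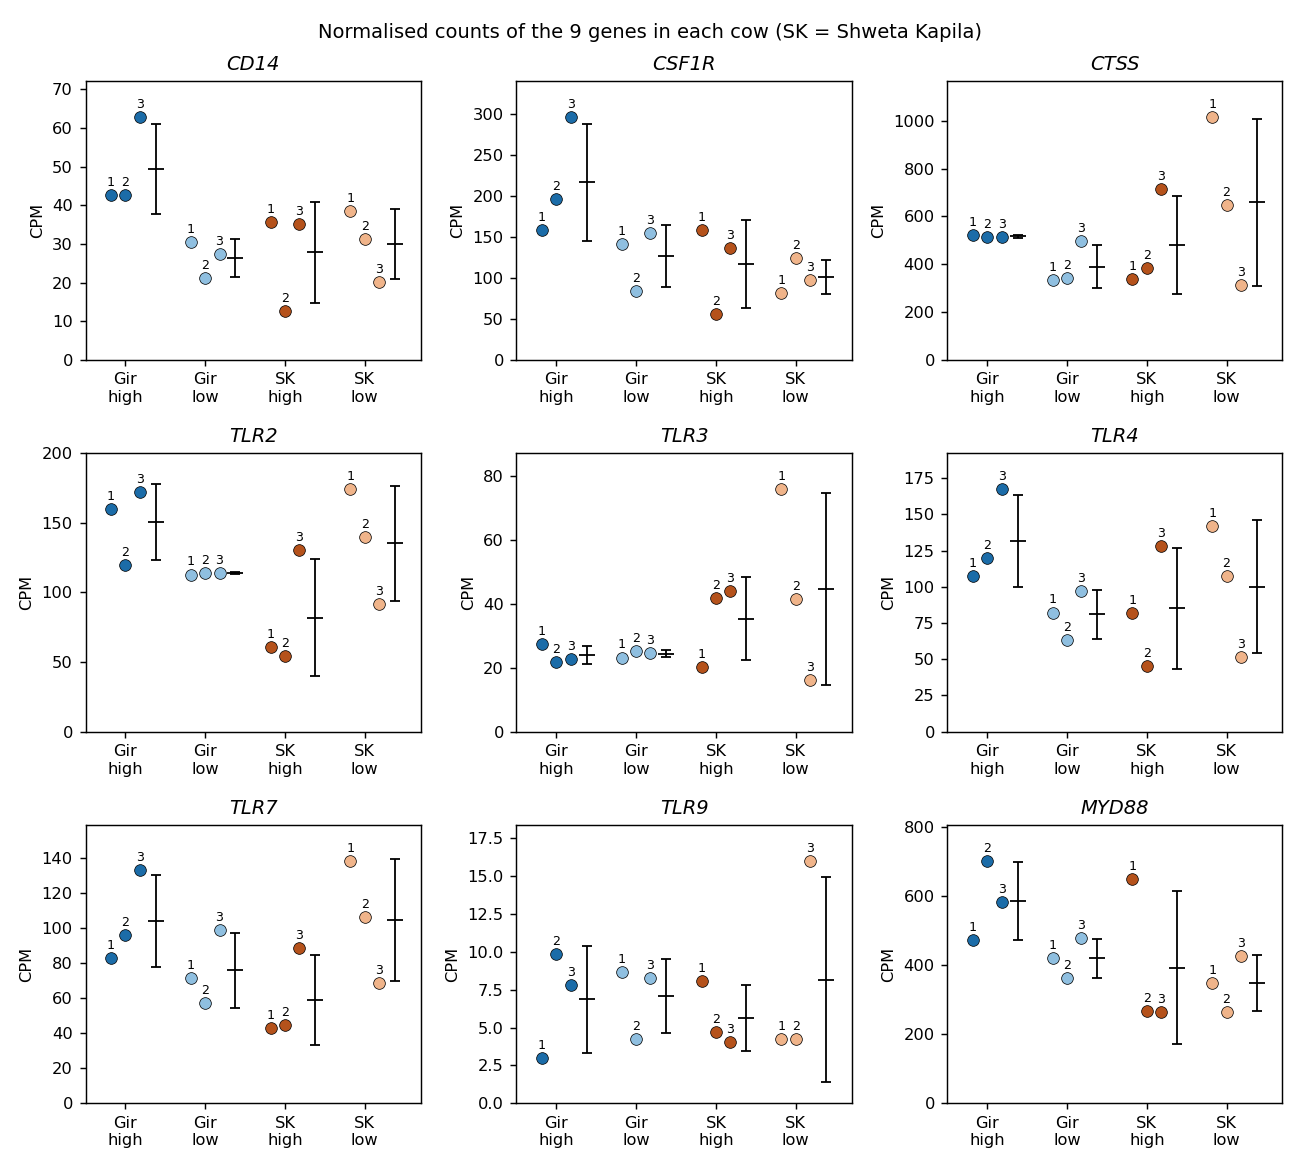
Normalised count (CPM, linear axes that start at 0 and differ between panels) of each gene in each of 12 cows. Points are cows with their replicate number, and bars are the mean ± SD of 3 cows. CD14 in the 3 high-yielding Gir cows (42.6 to 62.7 CPM) lies above all others, and the Shweta Kapila points of TLR3 spread from 16.1 to 75.9 CPM where the Gir points span 21.9 to 27.4 CPM.

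In Gir, 7 of the 9 genes were higher in the high-yielding cows and TLR3 and TLR9 were close to level. The median log2 difference, high minus low yield, was 0.46 over the 9 genes and −0.02 over all 15420 genes, of which 47.4% were above 0. For 5 genes, CD14, CSF1R, CTSS, TLR2 and TLR4, every high-yielding cow was above every low-yielding cow. The margin between the nearest cows was narrow for CSF1R (158 against 155 CPM), CTSS (512 against 496 CPM) and TLR2 (119 against 114 CPM). Among all genes, 10.2% had classes that did not overlap, and 5.12% of all genes did so in this direction. Several pairs of the 5 genes correlated over the 12 cows, though not CSF1R with CTSS (r = 0.07), so they are not 5 separate observations. No gene of the 15420 passed the adjusted test in Gir (0% called), where every adjusted p from edgeR's quasi-likelihood test was 1.

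CD14 had the largest Gir difference of the 9, a log2 fold change of 0.91 ± 0.38 (SE, 95% interval 0.08 to 1.73, edgeR unadjusted p = 0.0337, adjusted p = 1). It was the only one of the 9 with an unadjusted p under 0.05, a bound passed by 1.89% of all genes. CSF1R followed at 0.77 ± 0.38 (edgeR unadjusted p = 0.0652) and TLR4 at 0.70 ± 0.41 (edgeR unadjusted p = 0.110), both with an adjusted p of 1. The differences of MYD88 (0.48 ± 0.34), TLR7 (0.46 ± 0.35), CTSS (0.41 ± 0.39) and TLR2 (0.40 ± 0.33) were within 1.5 standard errors of 0. TLR3 (−0.02 ± 0.45) and TLR9 (−0.04 ± 0.58) had wide 95% intervals, from −0.99 to 0.94 and from −1.30 to 1.22. These standard errors come from a fit that shares its estimate of spread over both breeds, so they do not reflect the Gir cows alone. For TLR3 the standard error was 0.45 in Gir and 0.44 in Shweta Kapila. The SD of its log2 CPM within a class was 0.130 in Gir and 0.909 in Shweta Kapila. The directions of the first 7 held when any 1 Gir cow was left out, with CD14 between 0.70 and 1.02.

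Marker lists were set beside the same comparison, and most of their sums overlapped between the classes. The monocyte list summed to 1706 to 2118.6 CPM in high-yielding and 1241 to 1438 CPM in low-yielding Gir cows, with no overlap. Its 7 markers were split, with 4 higher and 3 lower at high yield, a median log2 difference of 0.20 and none with an unadjusted p under 0.05 by edgeR. SIRPA made up most of the difference in the sum, with means of 1290 and 894 CPM. The neutrophil list summed to 3371 to 5553 CPM and 2814 to 3874 CPM, which overlapped. All 9 NK and cytotoxic markers tested were lower in high-yielding Gir cows, with a median log2 difference of −0.46, though their sums overlapped. Of the 15 T cell markers, 13 were lower (median −0.24). All 7 conventional dendritic cell markers tested were higher (median 0.43), 2 of them above all low-yielding cows, against 5.12% of all genes. The part of cell makeup in the CD14, CSF1R and TLR4 differences was not tested.

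In Shweta Kapila the order was mostly the other way, with 2 genes higher and 7 lower in high-yielding cows and a median of −0.33, against −0.02 over all genes, of which 48.3% were above 0. None of the 9 genes separated the yield classes, against 7.21% of all genes. TLR7 had a log2 difference of −0.83 ± 0.35 (edgeR unadjusted p = 0.0371, adjusted p = 0.655), and it alone of the 9 had an unadjusted p under 0.05, against 6.98% of all genes. TLR2 was next at −0.72 ± 0.34 (edgeR unadjusted p = 0.0517, adjusted p = 0.655). No gene was called in this comparison (0% by edgeR).

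The other 7 differences in Shweta Kapila lay within 1.2 standard errors of 0: TLR9 −0.54, CTSS −0.46, TLR3 −0.33, TLR4 −0.24, CD14 −0.11, MYD88 0.18 and CSF1R 0.21. The sign of 6 of these 7 turned when 1 cow was left out, and that of CTSS did not (−0.87 to −0.02). Without high-yielding cow 2, CD14 turned to 0.24 and TLR4 to 0.07, and without low-yielding cow 1, CD14 was at 0.10, TLR4 at 0.09 and TLR3 at 0.28. Without high-yielding cow 1, CSF1R was at −0.06 and MYD88 at −0.38, and without low-yielding cow 3, TLR9 was at 0.39. TLR2 (−1.23 to −0.50) and TLR7 (−1.25 to −0.58) stayed below 0 whichever Shweta Kapila cow was left out.

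Library size and cell makeup also varied within Shweta Kapila. All 3 libraries over 22 M were above the other 3 Shweta Kapila cows for 4 of the genes, CTSS, TLR2, TLR4 and TLR7, as they were for 21.4% of all genes, and below them for TLR9, as for 24.6% of all genes. Without these 3 libraries, which leaves 1 low-yielding cow that is assumed to vary like the other groups, TLR2 was at −0.67 and TLR7 at −0.64, but CD14 (0.25), CTSS (0.20), TLR3 (0.96) and TLR4 (0.30) were above 0. With the share of the short identifiers as a covariate, TLR2 and TLR7 came to −0.16 and −0.18. NK and cytotoxic markers summed to 1259 to 2103 CPM in high-yielding and 666 to 1339 CPM in low-yielding Shweta Kapila cows, and T cell markers to 4989 to 6709 and 3093 to 4486 CPM. The log2 difference was below 0 for 10 of 11 B cell markers (median −1.01, 4 of them below all low-yielding cows) and for 4 of 4 plasmacytoid dendritic cell markers tested (median −1.06, 2 of them below), against 7.21% of all genes apart in either direction. T cell markers went the other way, with 13 of 15 above 0 (median 0.72, 7 of them above all low-yielding cows). So did NK and cytotoxic markers, with 8 of 9 above 0 (median 1.59, 5 of them above). edgeR called none of these markers. The B cell list summed to 968 to 1026 CPM in high-yielding and 903 to 3431 CPM in low-yielding cows, and the plasmacytoid dendritic cell list to 295 to 323 and 375 to 907 CPM. The part of these properties in the TLR2 and TLR7 differences was not tested.

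**Figure D2:**
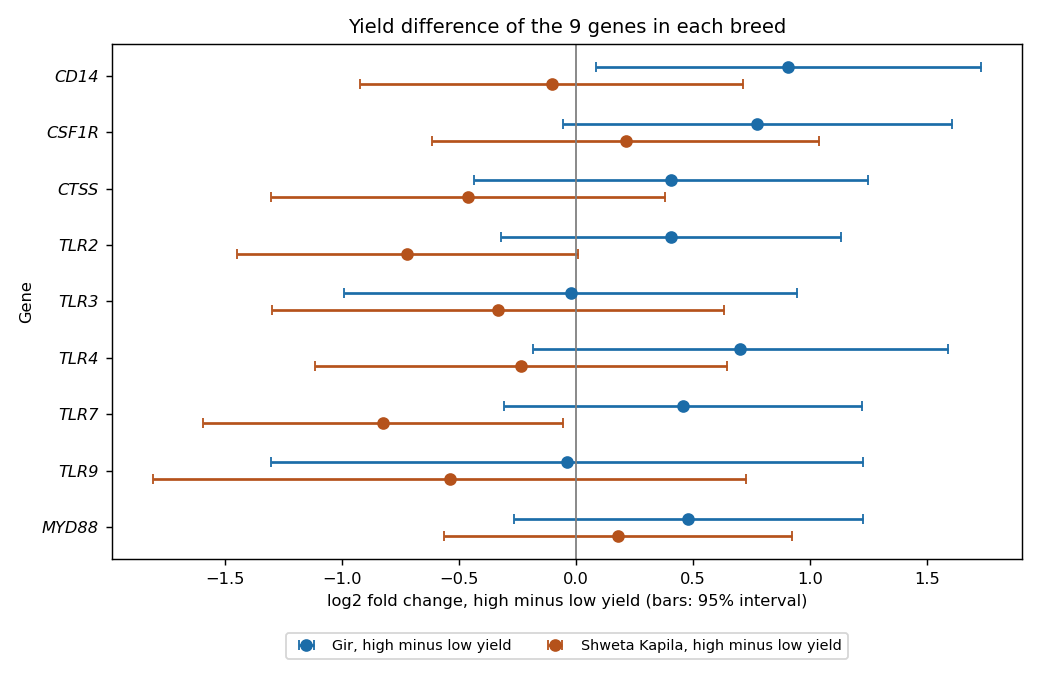
Log2 fold change, high minus low yield, of each of the 9 genes in Gir and in Shweta Kapila cows, from edgeR's fit over 12 libraries, with 95% intervals. The CD14 interval in Gir (0.08 to 1.73) and the TLR7 interval in Shweta Kapila (−1.59 to −0.06) leave out 0, and no adjusted p was under 0.05.

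The yield difference in Gir minus that in Shweta Kapila was above 0 for all 9 genes, with a median of 0.87, against 0.01 over all genes, of which 50.9% were above 0. TLR7 had the largest value, 1.28 ± 0.50 (edgeR unadjusted p = 0.0239), then TLR2 at 1.13 ± 0.47 (edgeR unadjusted p = 0.0342) and CD14 at 1.01 ± 0.53 (edgeR unadjusted p = 0.0816), each with an adjusted p of 0.955. These 2, TLR7 and TLR2, had an unadjusted p under 0.05, as did 3.81% of all genes. Every adjusted p was 0.955 or more (edgeR, 0% called), so a difference between the breeds in the yield difference was not shown for any of the 9 genes. Without low-yielding Shweta Kapila cow 1, TLR3 was at −0.31, and without low-yielding Shweta Kapila cow 3, TLR9 was at −0.43. The other 7 stayed above 0 whichever cow was left out. With the short identifier share as a covariate, the median over the 9 genes was 0.46, TLR4 was at 0.02, CTSS at −0.08 and TLR3 at −0.84.

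Averaged over the breeds, 4 genes were higher and 5 lower at high yield, with a median of −0.03, and 48.5% of all genes were higher. CSF1R (0.49 ± 0.27) and MYD88 (0.33 ± 0.24) were higher in both breeds, and TLR3 (−0.18 ± 0.31) and TLR9 (−0.29 ± 0.41) lower in both. The remaining genes had opposite signs in the breeds. None of the 9 had an unadjusted p under 0.05, against 4.13% of all genes, and none was called (edgeR, 0% called).

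Averaged over the yield classes, 7 of the genes were higher and 2 lower in Gir than in Shweta Kapila cows, and 45.1% of all genes were higher. CSF1R was higher in Gir by 0.61 ± 0.27 on the log2 scale (edgeR unadjusted p = 0.0433, adjusted p = 0.501). TLR3 was lower in Gir, at −0.72 ± 0.32 (edgeR unadjusted p = 0.0422, adjusted p = 0.497). These 2 were the only ones of the 9 with an unadjusted p under 0.05, against 9.57% of all genes. MYD88 stood at 0.43 ± 0.24 and CTSS at −0.32 ± 0.27, and the other 5 genes were between 0.05 and 0.32. None of the 9 separated all 6 Gir from all 6 Shweta Kapila cows, against 0.603% of all genes, and none was called (edgeR, 0% called). The TLR3 value changed with the libraries kept. Without the 3 over 22 M, which leaves only cow 3 among the low-yielding Shweta Kapila cows, it was 0.12. With the short identifier share as a covariate it was −0.40. Without low-yielding Shweta Kapila cow 3 it was −0.91 with an adjusted p under 0.05 (edgeR), in a fit that called 447 genes. The part of library size in the TLR3 value was not tested.

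Within the high-yielding cows, CD14 alone separated the breeds, with every Gir cow above every Shweta Kapila cow, against 12.7% of all genes with breeds apart in either direction and 6.01% in this one. CD14, CSF1R, TLR2 and TLR7, 4 of the 9, had an unadjusted p under 0.05 there, against 7.89% of all genes, and 8 of the 9 were higher in Gir, against 45.6%. Within the low-yielding cows none of the 9 did so, against 5.25%, none separated the breeds, against 9.45%, and 2 were higher in Gir, against 46.7%. Neither comparison called a gene (edgeR, 0% called). These comparisons share their cows with the yield comparisons above, and high-yielding Gir cows enter both the CD14 values given.

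Other tools were run on the same counts. DESeq2 called none of the 9 genes in any comparison. Among all genes it called 1 in Gir (0.00649%), 61 in Shweta Kapila (0.396%), 4 for the mean yield difference (0.0259%) and 9 for the difference between breeds in it (0.0584%). For breed it called 195 on average (1.26%), 137 at high yield (0.888%) and 21 at low yield (0.136%). Voom in limma with sample weights called 0.00649% of genes in Gir and 8.36% for the mean yield difference, with none of the 9 among them. In Shweta Kapila it called TLR2 and TLR7, both lower at high yield, among 25.3% of all genes. For the difference between breeds in the yield difference it called CD14, CTSS, TLR2, TLR4 and TLR7, all above 0, among 8.57% of all genes. For mean breed it called TLR3, lower in Gir, and MYD88, higher in Gir, among 16.7% of all genes. At high yield it called 1 of the 9, TLR2 (1.47% of all genes), and at low yield 4, CTSS, TLR3, TLR7 and MYD88 (37.5% of all genes). The weights ran from 0.184 for low-yielding Shweta Kapila cow 3 to 6.62 for low-yielding Shweta Kapila cow 2, so this fit leaned on the latter.

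The 9 genes varied more between Shweta Kapila than between Gir cows of the same class. The SD of log2 CPM within a class was wider in Shweta Kapila for all 9, as it was for 80.7% of all genes. The median SD of the 9 genes was 0.299 in Gir and 0.686 in Shweta Kapila, against 0.296 and 0.559 over all genes. TLR3 had the largest ratio of the 9, 7.01, and TLR9 the smallest, 1.14. The wider spread in Shweta Kapila is thus a property of most genes in these libraries. At 3 cows a class it limits what can be seen of the 9 genes in that breed. Through the spread that edgeR's fit shares over the breeds, it also enters the Gir intervals and p-values. For CD14 the standard error of the yield difference was 0.38 in both breeds, at SDs of 0.299 in Gir and 0.686 in Shweta Kapila.

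Over the 12 cows, 26 of the 36 pairs of the 9 genes had a positive Pearson correlation of log2 CPM. An adjusted p of 0.05 was passed by 15 pairs, 13 of them positive (permutation test, Benjamini-Hochberg over the 36 pairs). The share of passing pairs among all genes was not computed, so 15 of 36 is not shown to be particular to these genes. The 3 libraries over 22 M lay above the other 3 Shweta Kapila cows for 21.4% of all genes and below them for 24.6%. The genes of a pair were measured in the same libraries, and so share depth, cell makeup and group, so the correlations describe joint variation only. The count was 6 over the 9 cows without the large libraries, and between 7 and 11 when 1 cow was left out. It stayed at 10 or 11 only without low-yielding Gir cow 2 or high-yielding Shweta Kapila cow 1.

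CD14 and TLR4, partners in lipopolysaccharide recognition, had the highest correlation, r = 0.917 (rho = 0.853, permutation p = 4e-05, adjusted p = 0.00144). It was 0.841 without the 2 cows with the most extreme CD14 levels, 0.956 within Gir (exact permutation p = 0.00972, n = 6) and 0.903 within Shweta Kapila (exact permutation p = 0.0111, n = 6). TLR2 and TLR7 had r = 0.891 (rho = 0.874, adjusted permutation p = 0.00342), with 0.603 within Gir and 0.989 within Shweta Kapila. TLR4 and TLR7 had r = 0.824 (rho = 0.832, adjusted permutation p = 0.0111) and 0.835 without the 2 most extreme cows. CD14 and CSF1R had r = 0.847 (rho = 0.720, adjusted permutation p = 0.00744), with 0.573 without the 2 most extreme cows, 0.935 within Gir (exact permutation p = 0.0125, n = 6) and 0.743 within Shweta Kapila (exact permutation p = 0.0792, n = 6).

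TLR3 and TLR9, the endosomal receptors of double-stranded RNA and of DNA, were negatively correlated (r = −0.700, rho = −0.762, adjusted permutation p = 0.0386), also within Gir (−0.916) and within Shweta Kapila (−0.887). With MYD88, the adaptor it does not use, TLR3 had r = −0.678 (rho = −0.783, adjusted permutation p = 0.0410). TLR3 and CTSS had r = 0.793 (rho = 0.720, adjusted permutation p = 0.0152), which came from 1 breed, with 0.889 within Shweta Kapila and −0.03 within Gir.

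**Figure D3:**
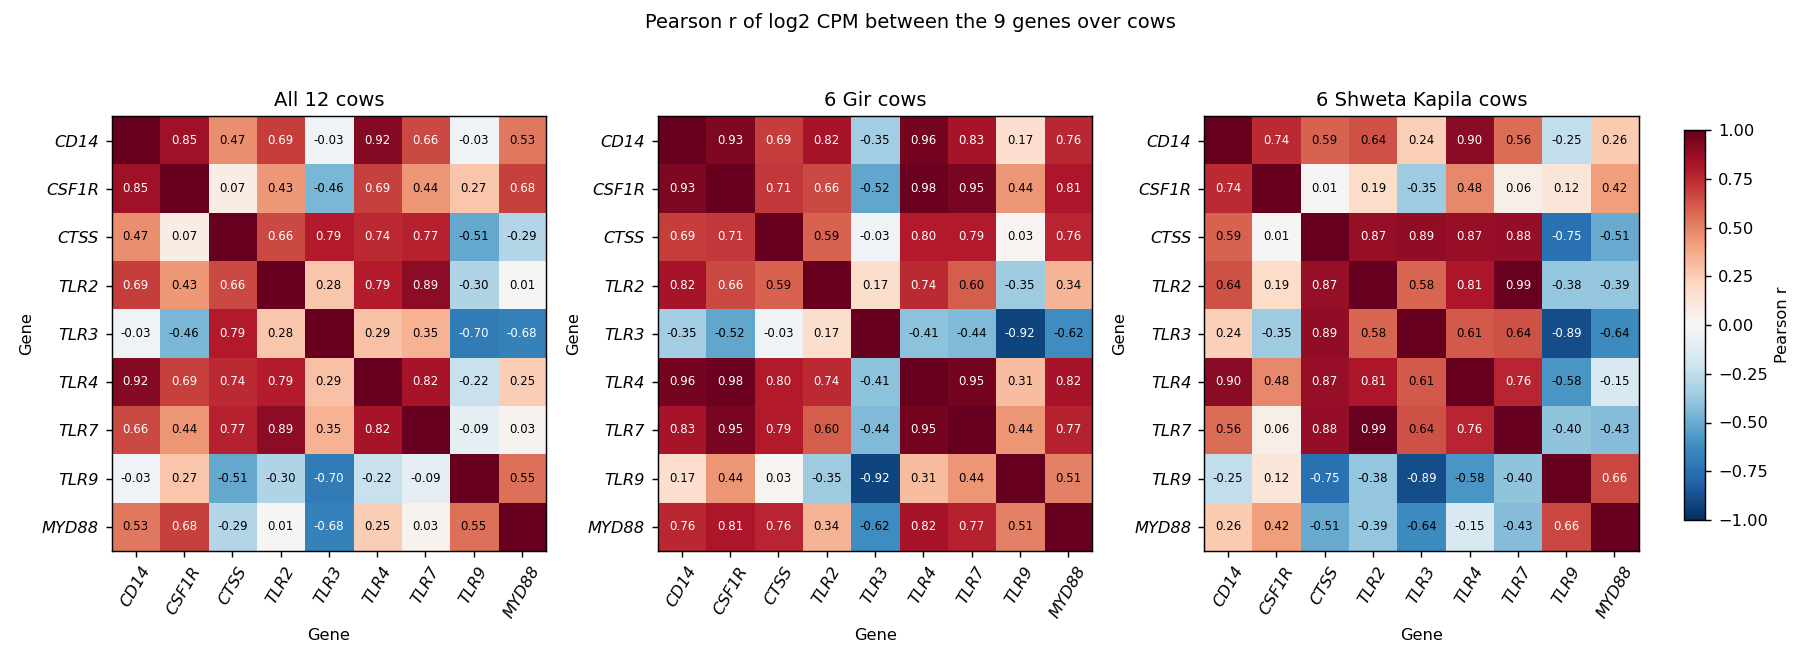
Pearson correlation of log2 CPM between each pair of the 9 genes, over 12 cows and within the 6 cows of each breed (colour and number, from −1 to 1). The block of CD14, CSF1R, TLR4 and TLR7 is red in Gir, while TLR3 is negative with TLR9 in both breeds (−0.92 and −0.89).

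The genes were also set against marker lists of 10 blood cell types and against library size and the short identifier share. Of these 108 relations, 5 passed an adjusted p of 0.05. The like share over all genes was not computed. TLR4 followed the mean of the monocyte list (r = 0.823, rho = 0.783, permutation p = 0.00145, adjusted p = 0.0313), and r was 0.802 without the 2 most extreme cows. MYD88 followed the neutrophil list (r = 0.861, rho = 0.832, adjusted permutation p = 0.0180), with 0.887 within Shweta Kapila and 0.551 within Gir. CTSS followed the short identifier share (r = 0.899, rho = 0.839, adjusted permutation p = 0.0162) and the library total (r = 0.858, rho = 0.748, adjusted permutation p = 0.0180), and TLR7 followed the short identifier share (r = 0.829, rho = 0.909, adjusted permutation p = 0.0219). CD14 with the monocyte list (r = 0.737), CSF1R with the neutrophil list (r = 0.724), TLR9 with the B cell list (r = 0.705) and TLR3 with the neutrophil list (r = −0.762) had adjusted permutation p-values of 0.0666 to 0.0849. So did TLR2 (r = 0.736) and TLR3 (r = 0.712) with the short identifier share, TLR3 with the library total (r = 0.730), and TLR7 with the monocyte list (r = 0.702) and the NK and cytotoxic list (r = −0.708). By rank, TLR2 with the short identifier share (rho = 0.860) and TLR7 with the monocyte list (rho = 0.839) had an adjusted permutation p of 0.0279. TLR4 with the monocyte list (adjusted permutation p of rho = 0.0691) and CTSS with the library total (0.0835) passed by Pearson r but not by rank.

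**Figure D4:**
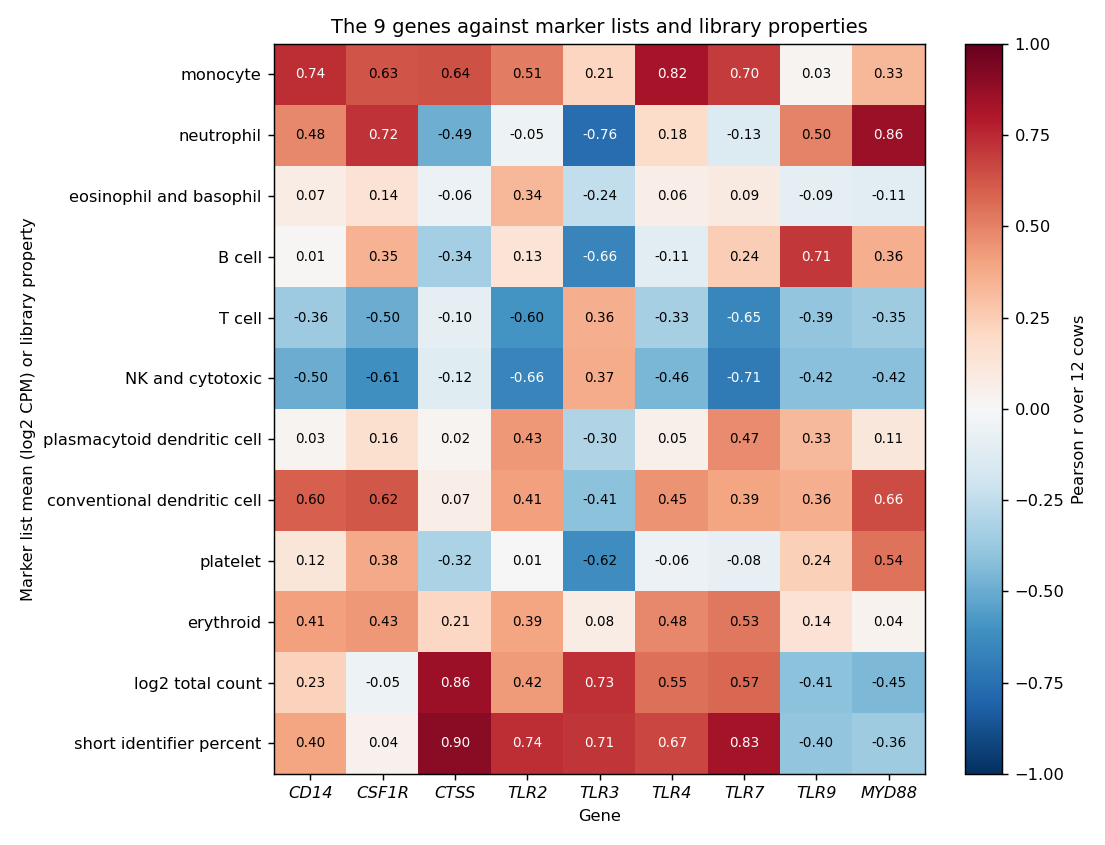
Pearson correlation over 12 cows between log2 CPM of each of the 9 genes (columns) and the mean log2 CPM of marker lists, the log2 library total or the short identifier share (rows). TLR4 is highest with the monocyte list (0.82), MYD88 with the neutrophil list (0.86), TLR9 with the B cell list (0.71) and CTSS with the short identifier share (0.90).

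The genes whose levels most resembled each of the 9 over the 12 libraries were taken as the 2 with the highest Pearson r of log2 CPM, as a description without a test. For CD14 these were MCEMP1 (0.963) and ASRGL1 (0.935), and for CSF1R the lysosomal genes CTSB (0.949), a cathepsin, and PSAP (0.941), which encodes prosaposin. GPAT3 (0.956) and PXK (0.937) were closest to TLR2, and ACSL6 (0.958) to TLR4. For the endosomal receptors, SKIL (0.988) and DCUN1D4 (0.987) were closest to TLR3, GNPDA1 (0.977) and PTER (0.964) to TLR7, and CACNA1A (0.911) and RIN3 (0.905) to TLR9. MYD88 was closest to SLC45A4 (0.955) and to NFE2 (0.943), a transcription factor of blood cells, and CTSS to BECN1 (0.970), an autophagy gene, and KAT2B (0.968), an acetyltransferase. DCUN1D4 correlated with TLR3 at 0.998 within Shweta Kapila and 0.559 within Gir.

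Other genes of the pathway were followed in 7 lists of 74 symbols, of which 61 were matched in the table and 59 tested. edgeR called no gene of these lists in any of the 7 comparisons, and calls by the other tools were not counted over the lists. In Gir, 47 were higher and 12 lower in high-yielding cows, with a median of 0.15, and 8 were above all low-yielding cows while 0 were below. Over all genes 47.4% were higher and 5.12% were above all low-yielding cows. In Shweta Kapila, 24 were higher and 35 lower, with a median of −0.07, and 48.3% of all genes were higher. An unadjusted p under 0.05 (edgeR) was reached in Gir by 2 of the 59, both higher, against 1.89% of all genes. In Shweta Kapila 4 higher and 1 lower did so, against 6.98%, and for mean breed 1 higher and 1 lower, against 9.57%. The genes named below were mostly picked for the lowest p of their list, so their unadjusted p-values are not evidence of a pathway difference.

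The 5 other Toll-like receptors, TLR1, TLR5, TLR6, TLR8 and TLR10, were all tested. In Gir, 4 of 5 were higher at high yield, led by TLR6 (0.62 ± 0.38), and TLR10 was lower (−0.66 ± 0.39). In Shweta Kapila all 5 were lower at high yield, with a median of −0.59, among them TLR8 (−0.71 ± 0.40), a single-stranded RNA sensor like TLR7, and TLR1 (−0.61 ± 0.36), a partner of TLR2. TLR8 ranged from 29.3 to 78.9 CPM in high-yielding and from 47.0 to 102 CPM in low-yielding Shweta Kapila cows. All 5 were higher in Gir than in Shweta Kapila on average, by up to 0.55 ± 0.31 for TLR5, the flagellin receptor.

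Of the 7 co-receptors and chaperones tested, 6 were higher at high yield in Gir. LBP, which carries lipopolysaccharide to CD14, was at 1.71 ± 1.06 but never above 1.14 CPM, and LY86 was at 0.43 ± 0.29. In Shweta Kapila, CD180, a receptor-like protein of B cells, was at −1.10 ± 0.42 (edgeR unadjusted p = 0.0225) and HSP90B1, the chaperone of Toll-like receptors, at −0.78 ± 0.38. HSP90B1 was also lower in Gir than in Shweta Kapila, by −0.63 ± 0.27 (edgeR unadjusted p = 0.0362).

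Adaptors and kinases differed little in Gir, where 11 of 15 were higher with a median of 0.10, from IRAK4 at −0.42 ± 0.34 to values such as 0.22 ± 0.25 for TRAF6. In Shweta Kapila the kinase gene IKBKE was at 0.97 ± 0.35 (edgeR unadjusted p = 0.0164) and TAB1 at 0.76 ± 0.35 (edgeR unadjusted p = 0.0499). Between breeds, MAP3K7, the kinase TAK1, was at −0.47 ± 0.29 and TRAF3 at −0.24 ± 0.16.

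Among the 10 transcription factors tested, FOS was at 1.69 ± 0.57 in Gir (edgeR unadjusted p = 0.0116), with 28.2 to 73.1 CPM in high-yielding and 10.1 to 24.2 CPM in low-yielding cows, and JUN was at 0.36 ± 0.30. In Shweta Kapila NFKB1 was at −0.46 ± 0.25 and IRF3 at 0.47 ± 0.28. IRF5, which acts below TLR7 and MYD88, was at 0.59 ± 0.29 and REL at −0.46 ± 0.23 between the breeds.

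Of the 9 brakes on signalling tested, IRAK2, listed here although it also passes the signal on, was at 0.49 ± 0.24 and NFKBIA at 0.43 ± 0.27 in Gir. In Shweta Kapila SOCS1 was at 1.39 ± 0.58 (edgeR unadjusted p = 0.0321) and SARM1 at 0.59 ± 0.32. TRAFD1 was higher in Gir than in Shweta Kapila by 0.34 ± 0.14 (edgeR unadjusted p = 0.0265) and IRAK2 by 0.31 ± 0.17.

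All 6 tested genes of the list of CSF1R ligands and myeloid transcription factors were higher at high yield in Gir, with a median of 0.32, among them the transcription factor KLF4 (0.74 ± 0.41). The ligand gene CSF1 was at 0.09 ± 0.46 in Gir, with 10.7 to 19.5 CPM in high-yielding and 10.2 to 15.3 CPM in low-yielding cows, and IL34 was under the filter. In Shweta Kapila 2 were higher and 4 lower, among the latter RUNX1 (−0.45 ± 0.30) and KLF4 (−0.43 ± 0.41). CSF1 was lower and its receptor higher in Gir than in Shweta Kapila, with CSF1 at −0.60 ± 0.32.

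Of the 7 cathepsins and inhibitors tested, 6 were higher at high yield in Gir, with CTSH at 0.77 ± 0.33 (edgeR unadjusted p = 0.0385) and CTSB at 0.55 ± 0.29. In Shweta Kapila CTSD was at 1.11 ± 0.43 (edgeR unadjusted p = 0.0228) and CTSK at 0.41 ± 0.30, while CTSS, of the 9 genes, was at −0.46. Between the breeds CTSK was at −0.45 ± 0.21 and CTSB at 0.31 ± 0.21.

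**Figure D5:**
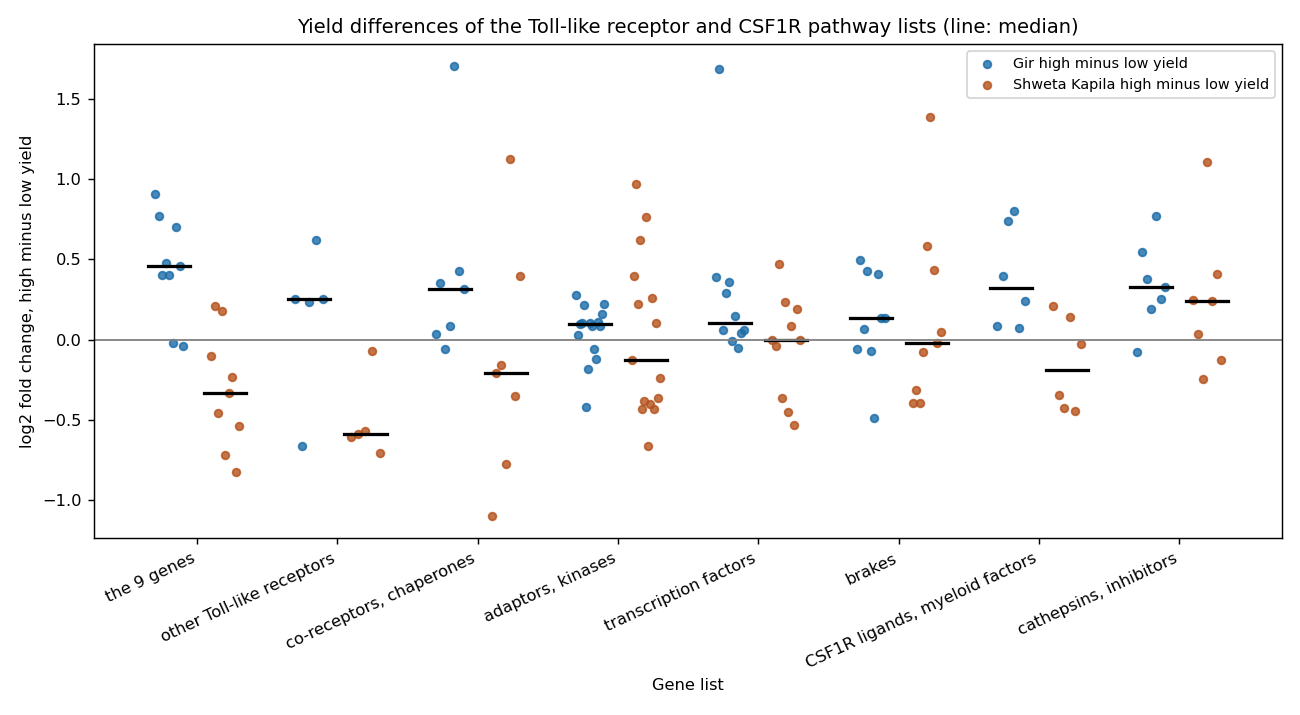
Log2 fold change, high minus low yield, of every tested gene of the 9 and of 7 pathway lists, in Gir and in Shweta Kapila cows. Points are genes and lines are list medians, which for the 9 genes are 0.46 in Gir and −0.33 in Shweta Kapila and for the other Toll-like receptors 0.25 and −0.59.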

How the data were processed

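Blood RNA of 12 cows was sequenced with a strand-marking, rRNA-depleted kit, per the labels' protocols. The authors deposited expected counts per gene, 57.0% of them not whole (tolerance 1e-06), in 1 table. Trimmomatic and FastQC are named in the submitters' processing notes. For the aligner, the counting program with its strand setting and the genome build, the sources used here give no name, so reads of overlapping or antisense genes may be shared, and no coordinates are given. Identifiers were paired with symbols by a RefSeq table of the assembly NIAB-ARS_B.indTharparkar_mat_pri_1.0 (22754 of 26229, 86.8%), used for names only. All 12 sample columns were used, and replicates of a group differed by more than counting noise (chi-square of their counts over genes, divided by its degrees of freedom, between 33.7 and 389).

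Expected counts were rounded and filtered (filterByExpr, minimum count 10, total 15). They were fitted in edgeR 4.0.16 (R 4.3.3) by TMM and a robust quasi-likelihood model with 4 group means over all 12 libraries (common biological coefficient of variation 0.381). The 7 contrasts were 2-sided with Benjamini-Hochberg adjustment over 15420 genes and a false discovery rate of 0.05. A count of 10 equals 0.373 to 0.679 CPM, depending on the library. Each library is a separate cow, so p-values measure the spread between these cows, shared over both breeds in the edgeR fit. Correlations used log2 CPM (prior count 2) with 100000 permutations, or exact ones within a breed (Python 3.11.15, NumPy 2.4.6, pandas 2.3.3, SciPy 1.17.1, with plots in matplotlib 3.10.9). The edgeR script was tested on simulated data.

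The 9 genes, the pathway and marker lists and the tests were chosen with earlier results of these data known. Named pathway genes are the 2 of lowest unadjusted p per list in the Gir, Shweta Kapila and mean breed comparisons, and genes named beyond these were chosen after their values were seen. Some genes that the rules pick are not reported here. Alternatives were RLE size factors, no TMM, no filter, DESeq2 1.42.0, limma 3.58.1 voom with sample weights, a replicate block, 2 covariates, and libraries left out. Leaving out 1 cow for the correlations was added after the data were seen.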

Additional observations from a re-analysis of the deposited data

How the results depend on the processing

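Over 756 refits of the 9 genes in 4 comparisons, 700 kept their direction and side of the threshold, 46 changed sign and 10 passed the threshold. Among them are refits without a cow of the other breed, which could hardly turn a yield difference within a breed. The 700 is therefore not a measure of how stable the values are. RLE size factors, no TMM, no filter and DESeq2 changed no direction or call of the 9 genes. Where edgeR called 0 genes, DESeq2 called 1 in Gir, 61 in Shweta Kapila, 4 for mean yield, 9 for the difference between breeds, 195 for mean breed, 137 at high and 21 at low yield. With limma voom and sample weights the counts were 1, 3908, 1289, 1321, 2580, 226 and 5784. With voom the median of the 9 was −0.66 in Shweta Kapila and 1.45 for the difference, CSF1R in Shweta Kapila was −0.61, and TLR9 was 0.19 in Gir and 0.19 in Shweta Kapila.

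Without a filter 3 genes were called for mean breed and 3 at high yield. The labels do not say that cows with the same number are linked. Deviations of same-numbered cows correlated at −0.06 to 0.01 in Gir and −0.56 to −0.13 in Shweta Kapila. Between unlike-numbered cows of the yield classes they correlated at −0.07 to 0.13 in Gir and −0.28 to 0.53 in Shweta Kapila. The replicate block called 1 gene for mean breed and 4 at high yield and changed no call of the 9. The short identifier share as covariate called 24 genes for mean breed and 6 at high yield, and gave medians of the 9 of 0.38 in Shweta Kapila and 0.46 for the difference. With it, Shweta Kapila values were CD14 0.39, CTSS 0.45, TLR3 0.74, TLR4 0.62 and MYD88 −0.15, and differences between breeds CTSS −0.081 and TLR3 −0.84. The log2 total as covariate called 1 gene in Shweta Kapila, 53 for mean breed and 164 at high yield, with a mean breed median of 0.52, TLR9 at 0.067 in Gir, TLR3 at −0.028 for the difference, and CTSS 0.16 and TLR9 −0.13 for mean breed. Without libraries over 22 M, 3 genes were called in Shweta Kapila, 1 for mean yield, 31 for mean breed, 119 at high and 6 at low yield. The medians were then 0.12 in Shweta Kapila and 0.70 for mean breed, CD14 0.25, CTSS 0.20, TLR3 0.96 and TLR4 0.30 in Shweta Kapila, TLR3 −0.99 for the difference, CTSS 0.42, TLR3 0.12 and TLR9 −0.53 for mean breed, and 6 pairs passed. The cause of these changes was not tested.

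Leaving out 1 cow gave 0 to 447 genes for mean breed (447 without low-yielding Shweta Kapila cow 3), 0 to 8 at high yield, 0 to 4 at low yield, 0 to 2 in Shweta Kapila, 0 to 1 for the difference, and 7 to 11 pairs. The medians ran from −0.55 to 0.064 in Shweta Kapila and from 0.63 to 1.22 for the difference. Ranges that crossed 0 were TLR3 (−0.13 to 0.038) and TLR9 (−0.39 to 0.32) in Gir; CD14 (−0.32 to 0.24), CSF1R (−0.064 to 0.55), MYD88 (−0.38 to 0.40), TLR3 (−0.73 to 0.28), TLR4 (−0.66 to 0.087) and TLR9 (−0.88 to 0.39) in Shweta Kapila; TLR3 (−0.31 to 0.71) and TLR9 (−0.43 to 0.86) for the difference; and TLR9 (−0.11 to 0.52) for mean breed. With 3 cows a group, intervals of the 9 genes span more than a doubling, and TLR9 was measured at the fewest counts.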
